A study of Arabidopsis thaliana with 11 samples.

Results

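The late steps of leucine breakdown and the electron acceptor that serves them were followed through 5 genes. They are MCCA (AT1G03090) and MCCB (AT4G34030), which encode the subunits of 3-methylcrotonyl-CoA carboxylase, IVD (AT3G45300), which encodes isovaleryl-CoA dehydrogenase, the HMG-CoA lyase gene AT2G26800, and ETFALPHA (AT1G50940), which encodes the alpha subunit of the electron transfer flavoprotein. The genes were chosen by their place in the pathway, with earlier results of these arrays known. They are 5 of 19524 features tested (11884 genes with a name and 7640 probe sets without one). Each of the 5 is paired with 1 probe set on the ATH1 array by the platform's table, so no choice between probe sets was needed.

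Leucine that is not used for protein can be burnt in plant mitochondria. Once its amino group and first carbon have been removed, IVD oxidizes isovaleryl-CoA and hands the electrons to the electron transfer flavoprotein, a dimer of ETFALPHA and ETFBETA, which passes them by way of ETFQO to the ubiquinone pool of the respiratory chain. The carboxylase then adds a carbon with the help of biotin, which is bound to MCCA, while MCCB holds the carboxyl transferase. A hydratase makes HMG-CoA, and HMG-CoA lyase splits it into acetoacetate and acetyl-CoA. The route is known for feeding respiration when sugar is short, as in darkness.

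Newly made RNA was measured in root protoplasts of Col-0 plants on 11 arrays. Of these, 6 came from cells transfected with 35S::GR::bZIP1 (4tU-bZIP1) and 5 from cells with the empty vector pJD385_35S::GR (4tU-EV), each a biological replicate by its label. Both groups were given 20 mM KNO3 and 20 mM NH4NO3 (for 1 h and 40 min by the labels, longer by the methods), then 35 µM cycloheximide for 20 min, which blocks translation, then dexamethasone at 10 µM for 5 h, which lets the GR fusion into the nucleus. For the last 20 min the cells took up 4-thiouracil (4tU, 1.5 mM) with 0.2 mM uracil, and RNA that carried 4tU was pulled down, amplified and hybridized. bZIP1, a transcription factor of the bZIP family, was thus driven by the strong 35S promoter in sorted transfected protoplasts of wild-type plants, which keep their own bZIP1 gene, and bZIP1 itself is among the genes not analysed here. The values are GCRMA intensities on the linear scale. They were compared as log2 values by limma, and a gene was called when its Benjamini-Hochberg adjusted p over all features was under 0.1. An intensity can be compared between arrays for 1 gene, but not between genes.

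One array, that of 4tU-bZIP1 replicate 1, stood apart, its median correlation with the rest being 0.878, while the other 10 arrays reached 0.943 to 0.965. The lowest of these 10 was 4tU-EV replicate 5. Array weights from limma, which are low for arrays far from the fit, were 0.082 for 4tU-bZIP1 replicate 1 and 0.372 for 4tU-EV replicate 5. The other controls had 1.296 to 5.605. Few cell markers could be read through the names at hand. The root hair gene EXPA7 was under an intensity of 16 on 10 of the 11 arrays (all but 4tU-bZIP1 replicate 1, at 55.0), and the epidermal regulator WER on 7, with 66.0 in 4tU-EV replicate 5 and 23.1, 88.8 and 146 in 4tU-bZIP1 replicates 3, 5 and 6. WER was named only through the study's own lists of called genes, which favor genes that changed on these arrays. RCA, which encodes Rubisco activase and marks green tissue, was under 16 on all 11. The root identity of the cells therefore rests on the labels, and the part of cell types in the results below was not tested.

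Of the 5 genes, MCCA alone was called, and its labeled transcript was 3.10-fold higher in cells expressing bZIP1 than in the control. MCCB, whose product is the partner of MCCA in the same enzyme, was not called, nor were IVD, HMG-CoA lyase and ETFALPHA. In all, 4 of the 5 had a higher mean in 4tU-bZIP1, where 51.6% of all features did, and ETFALPHA had a lower one. The median log2 fold change of the 5 genes was 0.50, which is the value of IVD, beside 0.0014 over all features. Without 4tU-EV replicate 5 the values were 1.50 for MCCA, 0.45 for MCCB, 0.19 for IVD, 0.21 for HMG-CoA lyase and -0.81 for ETFALPHA. The median of the 5 was then the 0.21 of HMG-CoA lyase. The median over all features was not matched for intensity, so these medians do not show a shift of the whole route. Of all features 0.164% were called higher and 0.0205% lower.

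**Figure D1:**
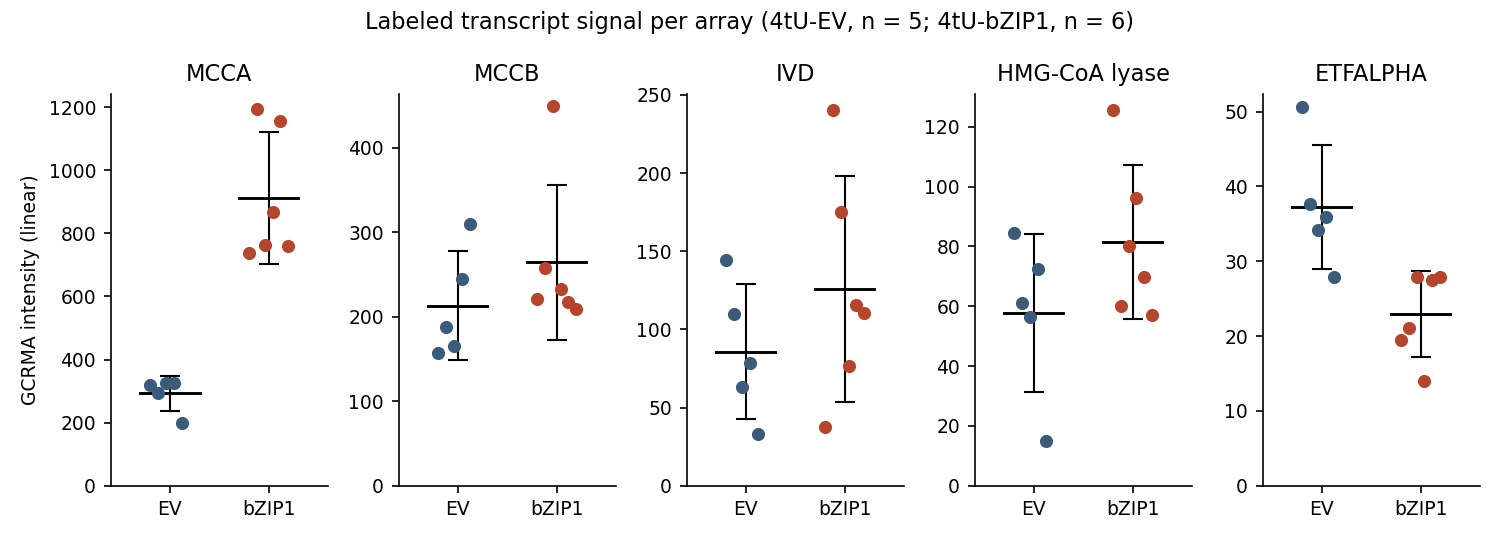
GCRMA intensity (linear axes that start at 0 and differ between panels) of the 5 genes on each array, with 4tU-EV (n = 5) in blue and 4tU-bZIP1 (n = 6) in red. Points are arrays, and black lines are the mean and SD. The groups are apart for MCCA, where the lowest 4tU-bZIP1 array is at 737 and the highest 4tU-EV array at 327, meet at 27.9 for ETFALPHA, and overlap for the others.

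MCCA (probe set 263118_at) carries the biotin and the biotin carboxylase of the enzyme. Over the 6 arrays of 4tU-bZIP1 its intensity ran from 737 through a median of 815 to 1194. In 4tU-EV it was 320, 295, 327, 327 and 197 in replicates 1 to 5. Every array of cells expressing bZIP1 was above every control array, as in 0.405% of the features tested. The means were 913 ± 209 (SD, n = 6) and 293 ± 55.1 (SD, n = 5). The log2 fold change was 1.63 (standard error, SE, 0.18, 95% interval 1.22 to 2.05, limma adjusted p = 0.010), or 3.10-fold. The exact two-sided permutation test over the 462 divisions of the arrays gave p = 0.0022, the smallest it can give. By its p from limma MCCA was number 11 of all features, and 0.23% of the features had a log2 fold change as large. MCCA belongs to a list that the study chose on these same arrays, so its rise here is no independent evidence. In bulk RNA a rise in each cell and a larger share of cells that make the transcript cannot be told apart. The call held in all 11 fits without 1 array. The log2 fold changes there ran from 1.50 (without 4tU-EV replicate 5, limma adjusted p = 0.0137) to 1.69 (without 4tU-bZIP1 replicate 1, limma adjusted p = 0.0208). The call held when the methods' one-way test was run on log2 values (adjusted p = 0.0222) and ended when it was run on linear values (adjusted p = 0.107). The methods do not state the scale of that test. They also call genes by a rank product, which was not run here. The call also ended when the replicate number was fitted as a block on replicates 1 to 5 (limma adjusted p = 0.447).

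MCCB (253279_at) encodes the subunit with the carboxyl transferase. Its intensity in 4tU-bZIP1 ran from 210 through a median of 226 to 449. In the control it was 157, 188, 165, 245 and 310 in replicates 1 to 5. The groups overlapped widely, and 1 array of 4tU-bZIP1, replicate 3, was above the highest control. The means were 264 ± 92.0 (SD, n = 6) and 213 ± 64.1 (SD, n = 5), with a log2 fold change of 0.30 (SE 0.24, limma adjusted p = 0.847, and p = 0.277 by the exact two-sided permutation test). The 95% interval ran from -0.24 to 0.84, that is from 0.848-fold to 1.80-fold, so that a fold as large as that of MCCA lay outside it. The MCCB log2 fold change fell to 0.14 without 4tU-bZIP1 replicate 3.

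On these arrays the transcripts of the carboxylase subunits thus changed unequally. On each array the log2 value of MCCA was set against that of MCCB, and this difference was compared between the groups. In 4tU-bZIP1 it was 1.74, 2.22, 0.76, 1.90, 2.41 and 1.86 in replicates 1 to 6. In 4tU-EV it was 1.03, 0.65, 0.98, 0.42 and -0.65 in replicates 1 to 5. Only replicate 3 of 4tU-bZIP1, the array with the highest MCCB, fell within the range of the control. The mean difference rose from 0.48 ± 0.68 (SD, n = 5) to 1.82 ± 0.57 (SD, n = 6), by 1.33 (exact two-sided permutation p = 0.0087, adjusted p = 0.0289 over 10 pairs of genes). The size itself depends on the probes, and only its change between the groups can be read. That change was 1.05 without 4tU-EV replicate 5. MCCA is on a list that the study chose on these same arrays. The comparison therefore favors a difference in advance and is no independent evidence.

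IVD (252570_at), the dehydrogenase that feeds electrons to the electron transfer flavoprotein, was the most variable of the 5 genes in 4tU-bZIP1. There its intensity ran from 37.4 in replicate 1 through a median of 113 to 240.5 in replicate 2, a range of 6.43-fold. In the control it was 145, 110, 62.9, 78.3 and 32.9 in replicates 1 to 5. The groups overlapped, with 2 arrays of 4tU-bZIP1 above the highest control and none below the lowest. The means were 126 ± 72.3 (SD, n = 6) and 85.7 ± 43.1 (SD, n = 5), with a log2 fold change of 0.50 (SE 0.52, limma adjusted p = 0.847, and p = 0.379 by the exact two-sided permutation test). The 95% interval, from -0.66 to 1.66, holds a fall as well as a rise of the size seen for MCCA. Without 4tU-bZIP1 replicate 1 the IVD log2 fold change was 0.80, and without 4tU-EV replicate 5 it was 0.19.

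HMG-CoA lyase (AT2G26800, 266864_at), the last enzyme of the route, had intensities from 57.2 through a median of 75.0 to 126 in 4tU-bZIP1. In 4tU-EV these were 84.5, 60.9, 56.3, 72.6 and 14.9 in replicates 1 to 5. Control replicate 5 was far below the rest, and the other control arrays lay within the range of 4tU-bZIP1 or just under it. The means were 81.5 ± 25.9 (SD, n = 6) and 57.8 ± 26.4 (SD, n = 5), and the log2 fold change was 0.65 (SE 0.43, 95% interval -0.32 to 1.62, limma adjusted p = 0.847, and p = 0.165 by the exact two-sided permutation test). Without 4tU-EV replicate 5 it was 0.21.

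ETFALPHA (256209_at), the alpha subunit of the flavoprotein that takes up the electrons of IVD, was the 1 gene with a lower mean in 4tU-bZIP1. Its intensity there ran from 14.0 through a median of 24.2 to 27.9. In the control it was 50.6, 37.6, 34.1, 35.9 and 27.9 in replicates 1 to 5. The groups touched without crossing, since control replicate 5 had the same value as 4tU-bZIP1 replicates 3 and 6, and the other 4 arrays of 4tU-bZIP1 were below every control. The means were 23.0 ± 5.73 (SD, n = 6) and 37.2 ± 8.32 (SD, n = 5), with a log2 fold change of -0.71 (SE 0.21, 95% interval -1.18 to -0.24). At an unadjusted p of 0.0074, ETFALPHA was among the 3.23% of features that were lower at an unadjusted p under 0.05 (exact two-sided permutation p = 0.0065). Over all features it did not pass (limma adjusted p = 0.691). The ETFALPHA log2 fold change was between -0.81 and -0.58 in the fits without 1 array.

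**Figure D2:**
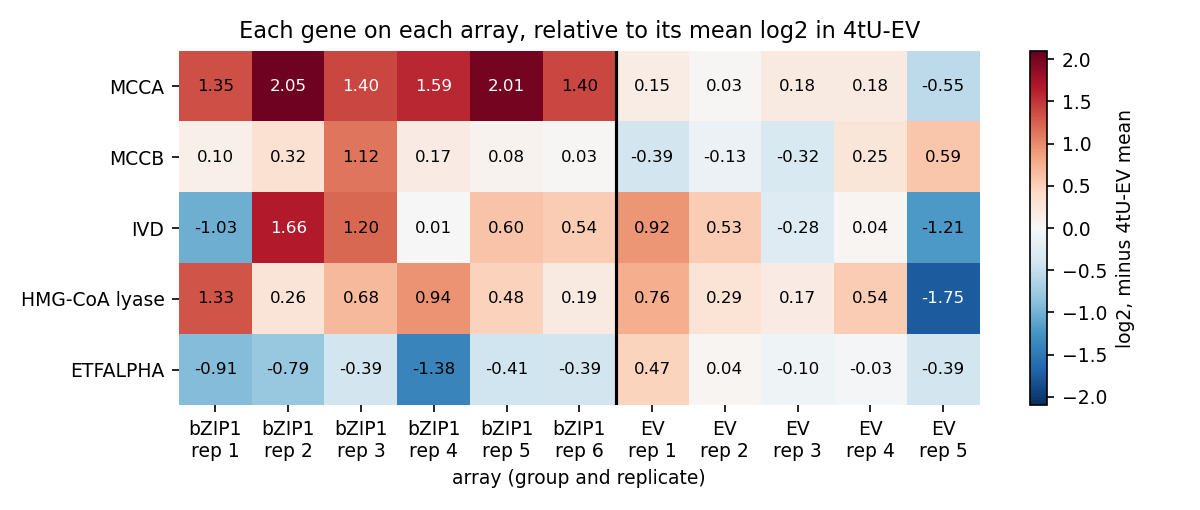
Log2 intensity of each gene (rows) on each array (columns), minus the mean log2 of that gene in 4tU-EV. Red is higher and blue is lower than the control mean. MCCA is 1.35 to 2.05 above it on all 6 arrays of 4tU-bZIP1, ETFALPHA is between -1.38 and -0.39 on all 6, and 4tU-EV replicate 5 is low for 4 of the genes.

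Array by array, the genes did not move as 1 block. Relative to its control mean, MCCA was higher by 1.35 to 2.05 on the log2 scale on the arrays of 4tU-bZIP1, and MCCB by 0.03 to 1.12. IVD ranged from -1.03 in replicate 1 to 1.66 in replicate 2, and HMG-CoA lyase from 0.19 in replicate 6 to 1.33 in replicate 1. Replicate 1, the array that stood apart, thus had the lowest IVD and the highest HMG-CoA lyase of its group. In the control, replicate 5 had the lowest MCCA, IVD, HMG-CoA lyase and ETFALPHA and the highest MCCB. The spread within groups was smallest for MCCA and ETFALPHA. ETFALPHA had low intensities, with 14.0 in 4tU-bZIP1 replicate 4, under 16, and the value 27.9 on 3 arrays. How far this made its spread small was not tested. The SD of the log2 values in 4tU-bZIP1 and 4tU-EV was 0.32 and 0.31 for MCCA and 0.40 and 0.31 for ETFALPHA. It was 0.42 and 0.41 for MCCB, 0.94 and 0.82 for IVD, and 0.43 and 1.00 for HMG-CoA lyase.

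All 10 pairs of the genes were compared in the same way as the subunits of the carboxylase. MCCA changed by more than each of the other 4 genes at an adjusted p under 0.1 over the pairs. Against ETFALPHA, the MCCA difference was larger by 2.35 in cells expressing bZIP1, and the groups did not overlap (exact two-sided permutation p = 0.0022, adjusted p = 0.0216 over the pairs). Against IVD it was larger by 1.14 (exact permutation p = 0.039, adjusted p = 0.0588) and against HMG-CoA lyase by 0.98 (exact permutation p = 0.0411, adjusted p = 0.0588). The call against IVD ended without replicate 1, 4, 5 or 6 of 4tU-bZIP1 or 1, 2 or 4 of 4tU-EV (adjusted p up to 0.135, exact permutation), and that against HMG-CoA lyase without replicate 2, 5 or 6 of 4tU-bZIP1 or 1, 2, 3 or 4 of 4tU-EV (adjusted p up to 0.136, exact permutation). ETFALPHA also moved down relative to HMG-CoA lyase (by 1.36, exact permutation p = 0.0043, adjusted p = 0.0216), to IVD (by 1.21, exact permutation p = 0.0238, adjusted p = 0.0476) and to MCCB (by 1.02, exact permutation p = 0.0216, adjusted p = 0.0476). Among MCCB, IVD and HMG-CoA lyase the differences were 0.15 to 0.35 in size and none passed (exact permutation p from 0.697 to 0.820), which does not show that these genes changed alike. The genes were chosen with earlier results of these arrays known, and the pairs that hold MCCA or ETFALPHA share those values.

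**Figure D3:**
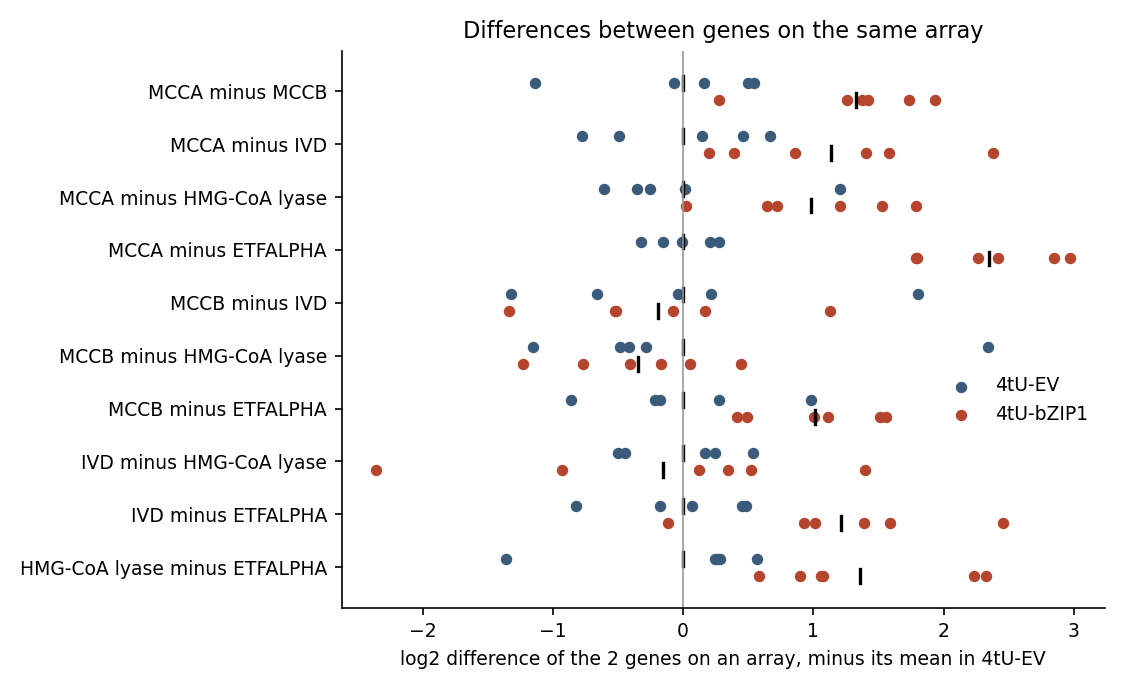
Difference between the log2 values of 2 genes on the same array, minus its mean in 4tU-EV, for the 10 pairs. Points are arrays of 4tU-EV (blue, n = 5) and 4tU-bZIP1 (red, n = 6), and black ticks are group means. The means of 4tU-bZIP1 lie 0.98 to 2.35 to the right for the 4 pairs with MCCA.

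The other genes around the route were read from lists of its shared first steps, the valine and isoleucine branch, the remaining leucine enzyme, the electron transfer partners, thiolases, biotin supply, the HMG-CoA and mevalonate pathway and leucine synthesis. Of their 45 genes, 10 could be read through a name of the platform's table, and 1 of these 10 was called higher and 0 lower, beside 0.164% and 0.0205% of all features. The gene called was ALDH6B2, which encodes methylmalonate semialdehyde dehydrogenase of the valine branch. The study reports ALDH6B2 as an induced target on these same arrays, so its call is no independent evidence. Fitted over features with a platform name only, 0 genes of the lists were called higher. The median log2 fold change of the 10 was 0.37. None of the genes for thiolases and biotin supply could be read, so whether the cofactor of MCCA changed with it was not tested.

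The partners of ETFALPHA did not share its lower mean throughout, and none of them was called. ETFBETA, the other subunit of the flavoprotein, averaged 117 ± 71.6 (SD, n = 6) with bZIP1 and 79.1 ± 27.9 (SD, n = 5) with the empty vector, and its log2 fold change was 0.51 (SE 0.39, limma adjusted p = 0.847). Its highest value, 261, was that of 4tU-bZIP1 replicate 1, and its lowest, 33.8, that of 4tU-EV replicate 5, without which the ETFBETA log2 fold change was 0.22. The value 80.2 was shared by 5 of the 11 arrays. ETFQO, which passes the electrons on to ubiquinone, averaged 26.7 ± 13.0 (SD, n = 6) against 17.4 ± 2.95 (SD, n = 5), for a log2 fold change of 0.50 (limma adjusted p = 0.847) that was 0.31 without 4tU-bZIP1 replicate 3. D2HGDH, a dehydrogenase of 2-hydroxyglutarate that gives its electrons to the same flavoprotein, ranged from 16.1 to 33.7 in 4tU-bZIP1 and from 22.2 to 43.4 in 4tU-EV, and its log2 fold change was -0.47 (95% interval -1.01 to 0.07, limma adjusted p = 0.847).

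Of the 9 genes listed for the shared steps upstream of IVD, 5 could not be read and 1 had a platform name. The other 3 were named only through the study's own lists of called genes, which favor genes that changed on these arrays, and they are given here as values outside the counts. BCAT-2, an aminotransferase of the first step, was at 571 to 1678 in 4tU-bZIP1 with a median of 786, and at 179, 117, 111, 140 and 44.3 in 4tU-EV replicates 1 to 5. All arrays of cells expressing bZIP1 were above the control, with a log2 fold change of 2.99 (SE 0.39, limma adjusted p = 0.027). BCAT-2 was called in all 11 fits without 1 array (2.67 to 3.17) and in 10 of 12 other settings. BCE2, the acyltransferase subunit of the branched-chain keto acid dehydrogenase, had 519 ± 173 (SD, n = 6) and 179 ± 53.2 (SD, n = 5), and here too the groups did not overlap. Its log2 fold change of 1.52 was not called (limma adjusted p = 0.254). BCDH BETA1, a subunit of the same complex, had 1.27 (95% interval -0.05 to 2.60, limma adjusted p = 0.847). AT5G09300, the gene with a platform name, had -0.56 (95% interval -1.93 to 0.80, limma adjusted p = 0.847). It was at 215.5 in 4tU-bZIP1 replicate 1, the array that stood apart, and at 11.7 to 73.5 in the other 5 arrays of that group. Its log2 fold change was -1.01 without that array and -0.17 without 4tU-bZIP1 replicate 5.

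ALDH6B2 had intensities of 112 to 184 in 4tU-bZIP1 with a median of 171, against 100, 68.2, 66.8, 98.2 and 68.2 in 4tU-EV replicates 1 to 5. The groups did not overlap, and the log2 fold change was 1.03 (SE 0.16, limma adjusted p = 0.072). This call ended without replicate 1, 2, 4, 5 or 6 of 4tU-bZIP1 or 2, 3 or 5 of 4tU-EV, and over the 11 fits without 1 array the ALDH6B2 adjusted p from limma ran from 0.0305 to 0.234. Of the rest, AT4G16800, the only gene of the list for the remaining leucine enzyme, ran from 6.38 to 30.3 in 4tU-bZIP1 and from 4.92 to 6.92 in 4tU-EV, and was under 16 on 10 of the 11 arrays. Its log2 fold change was 0.95 (95% interval 0.04 to 1.85, limma adjusted p = 0.847). AT3G54250, of the list for the HMG-CoA and mevalonate pathway, had a log2 fold change of 0.44 with an interval from -0.60 to 1.47, and was under 16 on 9 arrays. Without 4tU-bZIP1 replicate 6 the AT3G54250 log2 fold change was 0.13. The leucine synthesis gene IPMS2 (AT1G74040), named through the study's lists, had 2234 on 1 array, 4tU-bZIP1 replicate 3, and a median of 18.3 over that group, with 7.04 to 16.7 in the control (log2 fold change 1.89, limma adjusted p = 0.847, and 0.71 without that array).

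**Figure D4:**
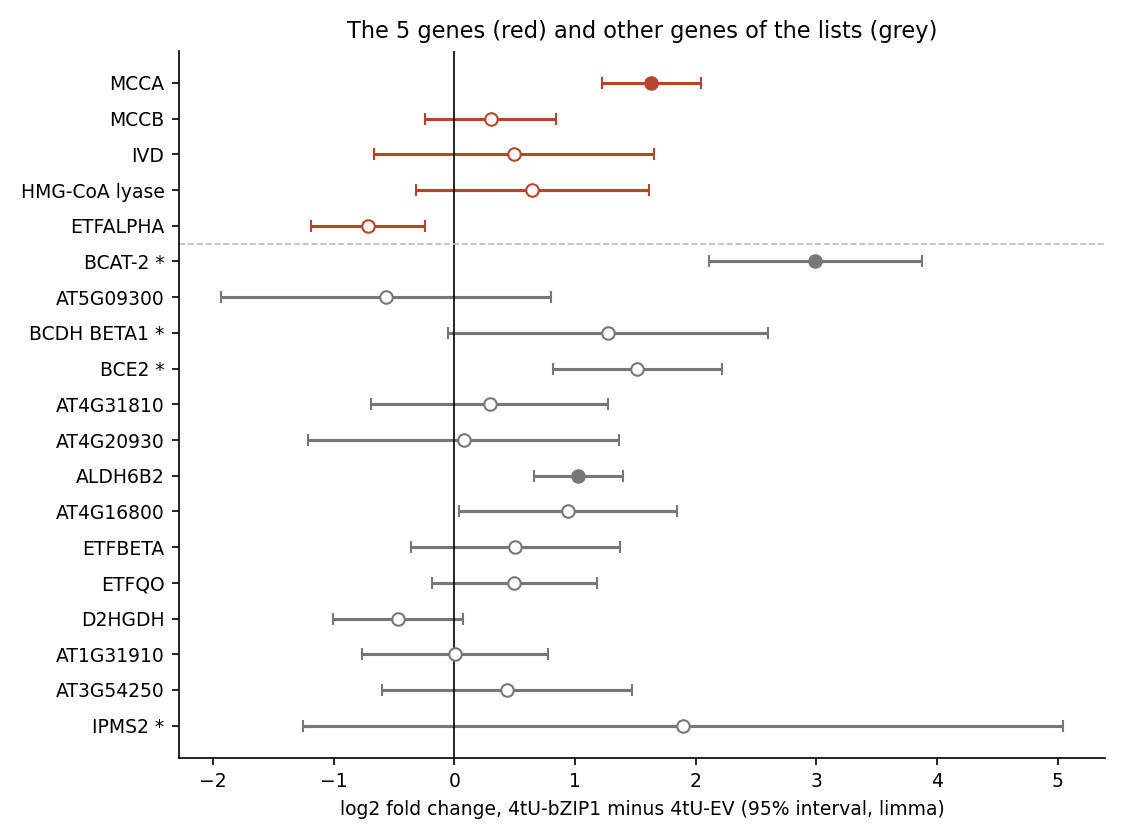
Log2 fold change of 4tU-bZIP1 over 4tU-EV from limma, with its 95% interval, for the 5 genes (red) and the measured genes of the lists (grey). Filled points passed an adjusted p under 0.1, and stars mark genes named only through the study's lists. MCCA at 1.63, ALDH6B2 at 1.03 and BCAT-2 at 2.99 are filled, and ETFALPHA at -0.71 is the only one of the 5 genes to the left of 0.

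Genes with profiles nearest to each of the 5 were found by the mean absolute difference between log2 profiles over the 11 arrays. Each profile was taken relative to its own control mean. The measure thus counts the difference between the groups together with the pattern from array to array. A near gene need not follow a member from array to array. That near genes share its fold change follows largely from the search and is no independent evidence. The search covered 3777 features with a platform name and a mean log2 of at least 5. Closest to MCCA were AT1G80380 (0.25), the granulin repeat cysteine protease gene AT3G19390 (0.29) and AT3G20340 (0.32). AT1G80380 had 1379 ± 510 (SD, n = 5) in 4tU-EV and 3722 ± 463 (SD, n = 6) in 4tU-bZIP1 but was not called (log2 fold change 1.53, limma adjusted p = 0.123), whereas AT3G19390 was called (1.34, limma adjusted p = 0.0626). Closest to ETFALPHA were AT5G10740 (0.20), the ARGOS-like gene ARL (0.22) and AT4G39830 (0.23), with ARL at a log2 fold change of -0.79 (limma adjusted p = 0.188). Nearest to HMG-CoA lyase were the ubiquitin-specific protease gene UBP16 (0.25), the plastid gene atpH (0.25) and AKINBETA1 (0.25). For MCCB they were AT1G11630 (0.23), AT3G56360 (0.25) and AT1G74940 (0.26), and for IVD, less near, AT3G15590 (0.29), AT1G07040 (0.36) and AT3G60450 (0.41). The 9 features nearest to MCCB, IVD and HMG-CoA lyase were not called. No gene of the pathway lists is among these nearest profiles, but most of those genes were not in the search. BCAT-2, BCDH BETA1, BCE2 and IPMS2 were left out of it because only the study's lists name them.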

How the data were processed

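Labeled RNA of 11 ATH1 arrays was analysed. The deposited intensity values were made by the authors with GCRMA (version not given in the sources used here), on the linear scale, 1 column per array. Log2 was taken with no pseudocount. Of 22810 probe sets, 64 controls, those with 1 value on all arrays, those with several genes (501) and unnamed ones with a shared-sequence suffix were left out. The probe set with the highest mean stood for each gene. Names came from the platform table (13513 probe sets) and, for 118, from the study's dataset alone. The groups were set against each other with limma 3.58.1 (R 4.3.3), with Benjamini-Hochberg adjustment over all 19524 features. Permutation tests were exact, in Python 3.11.15 with numpy 2.4.6. The fit was tested on simulated data. No counts underlie these values, and their precision depends on how many arrays there are and on the spread of each probe set over them. Genes that respond to protoplasting or cycloheximide, which the methods filter out with outside data, were kept. The study's lists of called genes hold its own findings and were used for names only.

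The 5 genes and all lists were chosen with earlier results of these data known. Genes named are the 5, all measured genes of the shared steps, the remaining leucine enzyme and the electron transfer partners, in other lists those called and the 1 with the smallest p, and the 3 nearest profiles of each gene. Alternatives were the methods' one-way test, a trended robust prior, array weights, centring, quantile normalization, a floor of 16, a minimum mean log2 of 5, all probe sets, a threshold of 0.05, the replicate block and each array left out. Replicates 1 to 5 without the block, named features only and the search for outlying arrays on the log2 scale were added after seeing the data.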

Additional observations from a re-analysis of the deposited data

Results flagged for a closer look

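Among the 10 groups of values (5 genes in 4tU-bZIP1 and in 4tU-EV), 2 held an array far from the rest on the linear scale and 3 on the log2 scale, where chance alone gives about 1 in 20 groups. MCCA in 4tU-EV replicate 5 had an intensity of 197.5 (7.63 on the log2 scale), and its gap to the next array made up 0.751 of the range of the group (0.794 on the log2 scale). MCCB in 4tU-bZIP1 replicate 3 had 448.9 (8.81 on the log2 scale), with a gap of 0.801 of the range (0.732 on the log2 scale). HMG-CoA lyase in 4tU-EV replicate 5 was at 3.89 on the log2 scale, with a gap of 0.766 of the range, and was not past the limit on the linear scale.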

How the results depend on the processing

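The direction of each of the 5 genes was the same in all alternatives that gave a value, and ETFALPHA has none at a minimum mean log2 of 5. MCCA lost its call in 2 of 13 settings beside those without 1 array, the methods' one-way test on linear values (log2 fold change 1.64, adjusted p = 0.107) and the replicate block (1.68, adjusted p = 0.447 from limma on replicates 1 to 5, where the same arrays without the block gave 0.026). The other 4 genes were called in none. Without 1 array the log2 fold change was 1.50 to 1.69 for MCCA, 0.14 to 0.45 for MCCB, 0.19 to 0.80 for IVD, 0.21 to 0.84 for HMG-CoA lyase and -0.81 to -0.58 for ETFALPHA.

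Between same-numbered arrays of the groups, the correlation of deviations from the group means was 0.0163 to 0.181. It was not set against that of arrays with different numbers, so whether the numbers mark pairs was not tested. The main fit has no block, as the methods describe none, and the alternative is the replicate block. With it, 0 features were higher and 0 lower. Numbers of features higher and lower were 17 and 2 by the methods' one-way test on linear values, 66 and 27 with array weights, 9 and 2 over platform names alone, 21 and 3 at an adjusted p under 0.05, and 18 and 3 on replicates 1 to 5 without the block. The number lower was 7 with values under 16 raised to 16 and 1 at a minimum mean log2 of 5. Without 1 array, 17 to 30 were higher (17 without 4tU-bZIP1 replicate 5, 18 without replicate 2, 4 or 6, and 19 without 4tU-EV replicate 2) and 1 to 11 lower (1 without 4tU-bZIP1 replicate 5, 2 without replicate 1, and 11 without 4tU-EV replicate 5). The number of pathway genes higher was 0 in 8 of the 13 settings and 0 to 1 without 1 array. The 8 are both one-way tests, the trended robust prior, the minimum mean, the threshold of 0.05, the block, replicates 1 to 5 and platform names alone.

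With the replicate block on 5 pairs of arrays, where a p under 0.0625 cannot be had, no pair of genes passed (adjusted p = 0.179 by exact sign permutation). The differences were 1.32 for MCCA minus MCCB, 1.19 for MCCA minus IVD, 0.94 for MCCA minus HMG-CoA lyase, 2.46 for MCCA minus ETFALPHA, and 1.14, 1.27 and 1.52 for MCCB, IVD and HMG-CoA lyase minus ETFALPHA. Without 1 array these 7 ranged over 1.05 to 1.54, 0.89 to 1.32, 0.82 to 1.29, 2.22 to 2.46, 0.80 to 1.26, 0.96 to 1.48 and 1.02 to 1.52. The pairs not called ran over -0.52 to 0.26 (MCCB minus IVD), -0.63 to 0.24 (MCCB minus HMG-CoA lyase) and -0.46 to 0.29 (IVD minus HMG-CoA lyase). The cause of these changes was not tested.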

Other observations

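Some deposited values are equal on several arrays to within a relative difference of 1e-05. ETFALPHA had 27.9 on 3 arrays and ETFBETA had 80.2 on 5, while MCCA, MCCB, IVD and HMG-CoA lyase had a value of their own on each array. At least 3 arrays shared a value in 51.0% of all features tested and in 6.94% of those with a mean log2 of 5 or more.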
